A study of Mus musculus with 2 samples.

Results

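The genes described are 10 genes associated with the articular surface and the zones of cartilage near it: Prg4, Cilp, Cilp2, Erg, Clu, Creb5, Tnc, Abi3bp, Ucma and Cytl1. They were chosen by name, all 10 were among the 13138 genes of the deposited table, and all 10 passed the minimum level that left 12809 genes for comparison. The data come from primary mouse chondrocytes of strain C57Bl/6, grown ex vivo as dense micromass cultures, in 2 RNA sequencing libraries. The first library came from cells transduced with Cre-recombinase adenovirus and is labelled hdac3-knockout. The second came from cells transduced with GFP control adenovirus and is labelled wild-type. Adenoviral Cre acts on any cell it enters that carries loxP sites, and the labels give neither a floxed allele nor the share of cells transduced. Which cartilage and which zone the cells came from was not stated in the labels. Each group holds 1 library, so there is no p-value and no measure of spread between cultures, and each difference is one between 2 libraries rather than between conditions.

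Articular cartilage is layered. The superficial zone faces the joint space and secretes lubricin, the product of Prg4, a mucin-like glycoprotein that lowers friction and keeps cells from adhering to the surface, and synovial lining cells secrete it too. The transcription factors Erg and Creb5 are known from developing joints and from the superficial zone, where Creb5 takes part in the activation of Prg4 in bovine chondrocytes. The list is not pure for the surface: Cilp is named for the intermediate layer of articular cartilage, and Ucma for the upper zone of the growth plate.

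The values are log2 normalized counts, as the authors deposited them, and with no read counts given the sequencing depth cannot be known. The level of Hdac3 was 10.68 in the Cre library and 10.69 in the GFP library, so the total over the gene gave no sign of its loss. The labels do not say which exons Cre removes, so this total cannot check the knockout label in either direction. The groups are called here by their viruses. All 10 defining chondrocyte markers looked for were in the table, with levels from 11.42 to 19.97 in the Cre library and from 11.89 to 20.35 in the GFP library. These markers were themselves lower in the Cre library: 10 of 10 lay below 0, where 50.1% of all genes did. By 1.5-fold or more 4 of them were lower, where 0.952% of all genes were. Most of the markers have a mean level of 14 or more. Among the 212 genes at that level, 70.3% lay below 0 and 6.13% were 1.5-fold lower. The median difference of the markers was -0.51, and Sox9, which encodes the master transcription factor of cartilage, differed by -0.39. That is the direction of 7 of the 10 articular surface genes described next, and the part of this shift in their results was not tested. Of all 12809 genes, 90% differed between the libraries by less than 0.33 on the log2 scale and 99% by less than 0.92.

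The articular surface genes did not move as a block between the libraries. Clu and Prg4 were higher in the Cre library, Tnc was close to level, and the other 7 genes were lower in the Cre library, with Cytl1, Abi3bp and Cilp2 furthest down. Differences ran from 0.77 for Clu to -0.71 for Cytl1 on the log2 scale, with a median of -0.27, against a median of -0.00041 over all genes compared. Below 0 were 7 of 10 genes, where 50.1% of all genes were, and above 0 were 3 of 10, where 49.9% of all genes were. At 1.5-fold or more, 1 of the 10 was higher in the Cre library, where 2.25% of all genes were, and 2 of the 10 were lower, where 0.952% of all genes were. At 2-fold or more, 0 of 10 were higher and 0 of 10 lower, while 0.734% of all genes were 2-fold higher and 0.0703% were 2-fold lower. At a smaller difference of 0.32 or more on the log2 scale, 2 of 10 were higher, where 6.02% of all genes were, and 3 of 10 lower, where 4.36% were. Among the 1150 genes with a mean level from 12 to 14, where 5 of the 10 lie, 3.22% were 1.5-fold higher, 2.35% were 1.5-fold lower and 60.5% lay below 0. In bulk RNA, fewer cells of a type and less RNA per cell cannot be told apart.

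**Figure D1:**
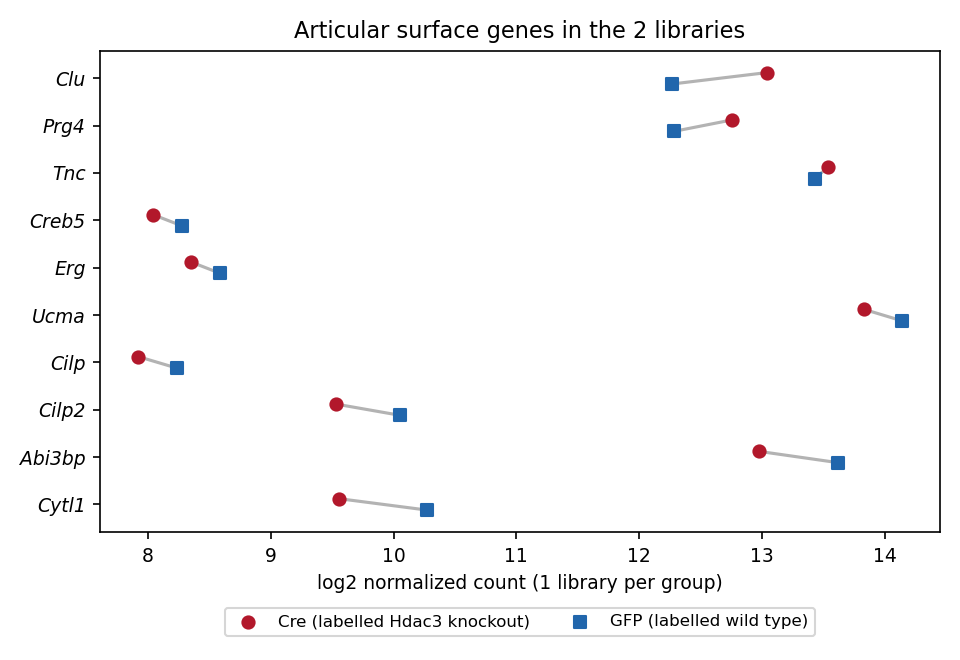
Level of each of the 10 articular surface genes on the x axis (log2 normalized count, 1 library per group), with the Cre library as circles and the GFP library as squares, ordered from the most positive difference to the most negative. Clu, Prg4 and Tnc have the circle to the right, and the 7 genes from Creb5 down have it to the left.

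Among the matrix genes, Prg4 had a log2 level of 12.75 in the Cre library, against 12.29 in the GFP library. The difference of 0.47 is a 1.38-fold higher level, short of the 1.5-fold threshold, and it lay at percentile 95.2 of the 500 genes nearest to Prg4 in level. The gene lies on the minus strand of chromosome 1 (150449412 to 150466165, GRCm38) and shares 204 of its 4280 exonic bases with Tpr on the other strand. Tpr, which encodes a nuclear pore protein, was at 13.04 in the Cre library and 13.12 in the GFP library. Without a stated strand setting the reads of those shared bases cannot be assigned, and their part in the result was not tested.

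Tnc encodes tenascin-C, a large multi-armed glycoprotein of developing and injured connective tissue that is also found in articular cartilage. Its level was 13.54 in the Cre library and 13.43 in the GFP library. The difference of 0.11 lies inside the 5th to 95th percentile range of the 500 genes nearest in level, which ran from -0.40 to 0.55. Both measured relatives had small differences in the same direction: Tnxb, a tenascin of loose connective tissue, differed by 0.22 and Tnn by 0.15.

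Abi3bp, a secreted matrix protein gene, went the other way. It had 12.98 in the Cre library against 13.62 in the GFP library, so that it was 1.57-fold higher in the GFP library. That difference of -0.65 lay at percentile 2 of the 500 genes nearest in level. Abi3bp spans 212 kb on the plus strand of chromosome 16 (56477878 to 56690135).

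The cartilage intermediate layer genes were both lower in the Cre library. Cilp encodes a secreted glycoprotein known to bind and restrain TGF-beta 1, and Cilp2 encodes its paralogue. Cilp2 (chromosome 8, 69880369 to 69887687) was at 9.53 in the Cre library and 10.06 in the GFP library, a difference of -0.53 at percentile 1 of the genes nearest in level. Cilp (chromosome 9, 65265180 to 65280605) was at 7.92 in the Cre library and 8.23 in the GFP library, a difference of -0.31 at percentile 7, inside the 5th to 95th percentile range of those genes, which ran from -0.38 to 0.33. As paralogues they may share some reads, and how multiply aligned reads were handled was not stated in the labels.

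The other secreted proteins split. Clu encodes clusterin, an extracellular chaperone that is made by surface chondrocytes and by many stressed or inflamed tissues. Its level was 13.04 in the Cre library and 12.27 in the GFP library, a 1.70-fold higher level and the most positive difference of the 10 genes. It ranked 168 from the top among 12809 genes and lay at percentile 98.2 of those nearest in level. Clu lies on the plus strand of chromosome 14 (65968483 to 65981547).

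Cytl1, which encodes a cytokine-like protein secreted by chondrocytes, had the most negative difference. It was at 9.56 in the Cre library and 10.27 in the GFP library, a level 1.64-fold higher in the GFP library. It ranked 67 from the bottom among all genes, at percentile 1 of the genes nearest in level. Ucma, whose product is a small protein rich in gamma-carboxylated glutamate, was at 13.83 in the Cre library and 14.14 in the GFP library. Its difference of -0.31 lies within the 5th to 95th percentile range of the genes nearest in level, from -0.40 to 0.55.

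Both transcription factors were slightly lower in the Cre library, by amounts that many genes at their level showed. Erg, an ETS family factor, was at 8.35 in the Cre library and 8.59 in the GFP library. Creb5, a bZIP factor related to Atf2 and Atf7, was at 8.04 in the Cre library and 8.28 in the GFP library. Each differed by -0.24, at percentile 8 for Erg and percentile 10 for Creb5 among the 500 genes nearest in level. Erg spans 227 kb on the minus strand of chromosome 16 (95359169 to 95586593), and Creb5 spans 413 kb on the plus strand of chromosome 6 (53287270 to 53700376). Prg4 was higher in the library in which Creb5 was lower, and a link between them was not tested.

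**Figure D2:**
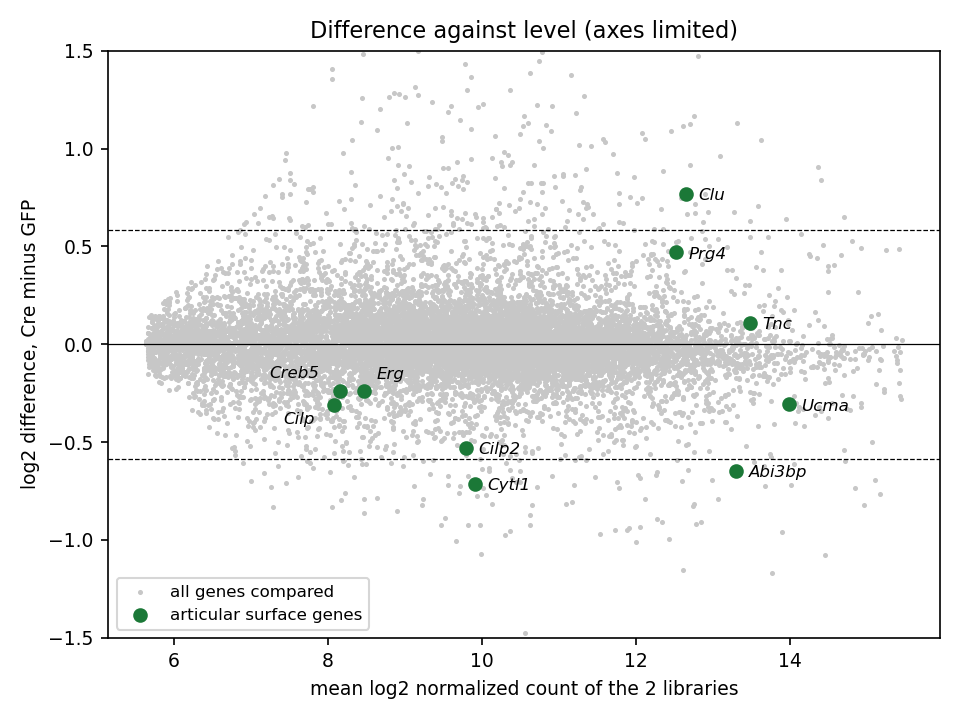
Difference between the libraries (log2, Cre minus GFP, y axis) against the mean log2 normalized count of the 2 libraries (x axis) for the genes compared, in grey, with the 10 articular surface genes in green. Dashed lines mark 1.5-fold, and 75 of 12809 genes lie outside the axes. Clu is above the upper line, and Abi3bp and Cytl1 are below the lower line.

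The sequences upstream of these genes are shown because they stand for the lower genes: Cytl1 with the most negative difference, Ucma with the highest level per length, and Creb5, which has a binding motif of its own wider factor family there. RefSeq promoter sequences (GRCm38.p6) were matched for 7 of the 10 genes, with 11 start sites, and not for Prg4, Clu and Abi3bp. Each sequence is given 5′ to 3′ on the plus strand and ends before the start of the gene in both RefSeq and GENCODE, and capitals mark motif matches. The windows are chr5:37735269-37735518 for Cytl1, chr2:4975872-4976121 for Ucma and chr6:53287053-53287269 for Creb5.
Cytl1: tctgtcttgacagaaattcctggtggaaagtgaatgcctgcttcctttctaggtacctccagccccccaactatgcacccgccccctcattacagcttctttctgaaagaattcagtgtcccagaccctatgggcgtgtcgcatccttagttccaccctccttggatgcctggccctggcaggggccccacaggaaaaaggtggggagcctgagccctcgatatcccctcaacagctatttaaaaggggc
Ucma: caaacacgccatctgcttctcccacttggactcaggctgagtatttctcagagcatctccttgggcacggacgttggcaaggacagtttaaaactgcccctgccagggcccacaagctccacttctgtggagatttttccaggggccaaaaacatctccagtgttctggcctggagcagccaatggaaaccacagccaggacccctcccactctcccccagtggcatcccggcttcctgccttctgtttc
Creb5: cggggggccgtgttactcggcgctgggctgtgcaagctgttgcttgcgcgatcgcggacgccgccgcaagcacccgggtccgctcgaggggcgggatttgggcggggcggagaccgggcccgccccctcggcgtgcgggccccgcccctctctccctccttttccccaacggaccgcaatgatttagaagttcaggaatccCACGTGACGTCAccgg
The capitals in Creb5 hold the cyclic AMP response element TGACGTCA, the motif of CREB and ATF factors, 45 bases before the RefSeq start, overlapping the E-box CACGTG. On either strand, the first was found in the 250 bases before 1.55% of 32851 promoters and the second before 6.02%. The windows of Cytl1 and Ucma held no match to these motifs, to the AP-1 motif TGANTCA (6.75% of all promoters), to the SOX cores ACAAAG (16.5%) and AACAAT (9.42%), to the TATA motif TATAAA (12.4%), to the ETS motif CCGGAAGT (2.88%) or to the C/EBP motif TTGCGCAA (0.164%). Another Creb5 start site, with its window at chr6:53573124-53573373, is not printed. It held the AP-1 match TGACTCA and no cyclic AMP response element. Other windows not printed matched the TATA motif for Tnc and Erg, and the SOX core AACAAT for Erg and Cilp2. No binding or acetylation was measured in the files used here, so a match is a description of letters.

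Levels between genes were compared per kb of exon, using the merged exons of each gene in GENCODE M21. On this log2 scale Ucma stood far above the others, with 14.01 in the Cre library and 14.32 in the GFP library. The lowest was Creb5, with 3.40 in the Cre library and 3.63 in the GFP library, over merged exons of 25.0 kb that include long alternative transcripts and so understate its level. Erg, Cilp and Cilp2 lay between, from 5.83 to 7.42 in the Cre library and from 6.15 to 7.95 in the GFP library.

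The remaining 5 genes lay close together and stood in a different order in each library. In the Cre library Clu came first at 11.26, then Prg4 at 10.66, Tnc at 10.58, Abi3bp at 10.09 and Cytl1 at 9.48. In the GFP library Abi3bp came first at 10.73, then Clu at 10.49, Tnc at 10.47, Cytl1 at 10.19 and Prg4 at 10.19. Prg4 was thus the second of the 5 in the Cre library and the last, level with Cytl1, in the GFP library. With 1 library each, no neighbours in either order can be said to differ beyond the spread between cultures.

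**Figure D3:**
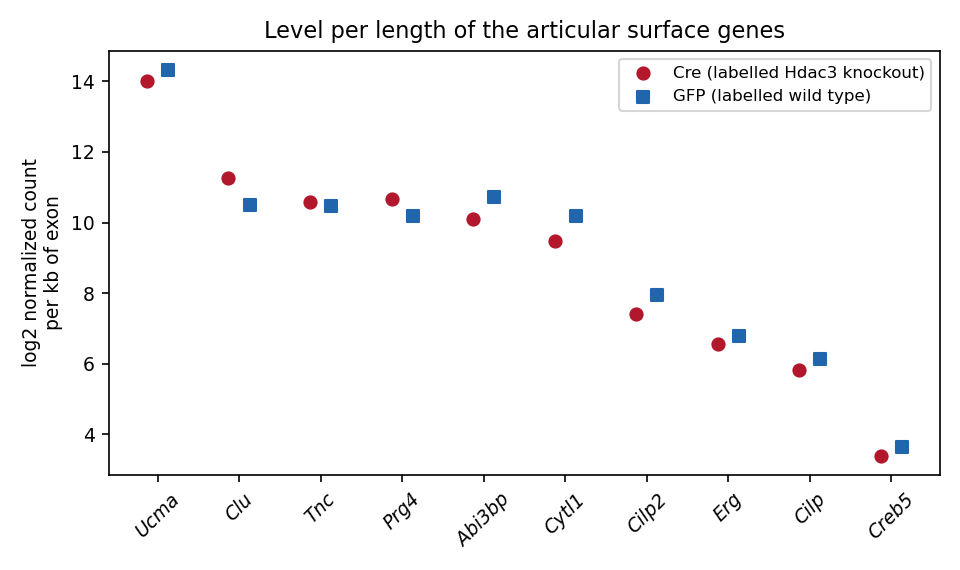
Level per length of the 10 articular surface genes (log2 normalized count per kb of merged exon, y axis), with the Cre library as circles to the left and the GFP library as squares to the right, 1 library each, ordered by mean. Ucma stands apart at about 14, and Clu, Tnc, Prg4, Abi3bp and Cytl1 lie between 9.48 and 11.26.

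Other genes of the superficial zone and of the joint interzone, the cell layer from which joint surfaces form, were close to level. Of 18 measured genes, 11 lay above 0 and 7 below, with a median of 0.03, and 1 was 1.5-fold higher and 0 were 1.5-fold lower. The 1 gene past the threshold was Gdf5, the growth factor that marks the interzone, at 9.76 in the Cre library and 9.15 in the GFP library. Has1, which makes hyaluronan, and Cd44, its receptor, each differed by 0.37. The odd-skipped factor genes Osr1 and Osr2, which act in joint formation, differed by -0.25 and -0.24, as did Erg and Creb5, and Tppp3 by -0.29.

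A list of cartilage matrix genes, drawn up for deeper cartilage and the growth plate, lay lower than the articular surface genes. Of 21 measured, 18 were below 0, where 50.1% of all genes were, and the median was -0.50. At 1.5-fold, 0 were higher in the Cre library, where 2.25% of all genes were, and 6 lower, where 0.952% were. Many of the 21, such as Col2a1 and Acan, have a mean level of 14 or more. Among the 212 genes at that level, 70.3% lay below 0 and 6.13% were 1.5-fold lower. The part of level in these counts was not tested. Those past the threshold were the matrilin genes Matn3 (-0.89) and Matn1 (-0.66), the collagen genes Col10a1 (-0.87) and Col27a1 (-0.59), Acan (-0.83), which encodes aggrecan, and Hapln1 (-0.77), which encodes link protein. The most positive difference in that list was that of Prelp, a leucine-rich matrix protein gene, at 0.44. Whether the 2 lists differ beyond the spread between cultures could not be tested with 1 library per group. The deeper-zone list holds every defining chondrocyte marker except Sox9, so it is not specific to a zone and cannot show a contrast between zones. Its shift and that of those markers are not independent results.

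Receptors and binding partners of these proteins were more often higher than lower. Of 20 measured, 14 lay above 0, where 49.9% of all genes did, and the median was 0.10. At 1.5-fold, 4 were higher, where 2.25% of all genes were, and 1 was lower, where 0.952% were. Some of those above 0 were close to it, such as Fn1 at 0.08 and Itgb3 at 0.07. Tlr2, a receptor that lubricin is known to bind, was at 11.91 in the Cre library and 10.36 in the GFP library, a 2.91-fold higher level, while Tlr4 differed by 0.36. Sdc4 and Sdc1, surface proteoglycans, differed by 0.90 and 0.72. The hyaluronan-binding proteoglycan gene Vcan differed by 0.63 and its cartilage counterpart Acan by -0.83. The integrin genes Itga9, Itgav and Itgb1, whose products bind tenascin-C or pair with those that do, differed by 0.01, 0.13 and -0.03.

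Regulators known to act on Prg4 expression differed in both directions. Of 21 measured, 8 lay above 0, and the median was -0.02, with 1 gene 1.5-fold higher and 1 lower. Both were ligands of the EGF receptor: Ereg was at 10.63 in the Cre library and 9.40 in the GFP library, and Tgfa was at 9.01 in the Cre library and 9.93 in the GFP library. The receptor gene Egfr differed by 0.19. Of the TGF-beta ligands, which raise Prg4 in cultured chondrocytes, Tgfb1 differed by 0.26, Tgfb2 by -0.42 and Tgfb3 by -0.58. The receptor genes Tgfbr1 and Tgfbr2 differed by -0.07 and -0.19, and Pth1r, the receptor of parathyroid hormone-related protein, by -0.53.

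Relatives of the transcription factors lay on both sides of 0, more of them above it, where 49.9% of all genes lay. Among 15 ETS genes 11 lay above 0, with a median of 0.14 and 0 past 1.5-fold in either direction. Etv1, Ets2 and Etv6 differed by 0.43, 0.41 and 0.41, while Fli1, the closest relative of Erg, differed by -0.0023. Among 14 bZIP genes 9 lay above 0, with a median of 0.09. Junb, an AP-1 subunit gene, was 1.64-fold higher in the Cre library, Fosl2 differed by 0.54 and Crem by 0.52. Creb3l2, a membrane-bound factor gene of the secretory pathway, differed by -0.34, further below 0 than Creb5. Atf2 and Atf7, the closest relatives of Creb5, differed by 0.04 and 0.01.

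Ucma is activated by vitamin K-dependent carboxylation. Ggcx, the carboxylase gene, was at 11.07 in the Cre library and 11.34 in the GFP library, and Vkorc1, which recycles vitamin K, was at 11.58 in the Cre library and 11.87 in the GFP library. Their differences of -0.27 and -0.28 are close to that of Ucma. Mgp, another carboxylated inhibitor of calcification, differed by -0.74. Of 8 measured genes in this list 6 lay below 0, and their median was -0.10. At 1.5-fold, 0 were higher and 1, Mgp, was lower.

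**Figure D4:**
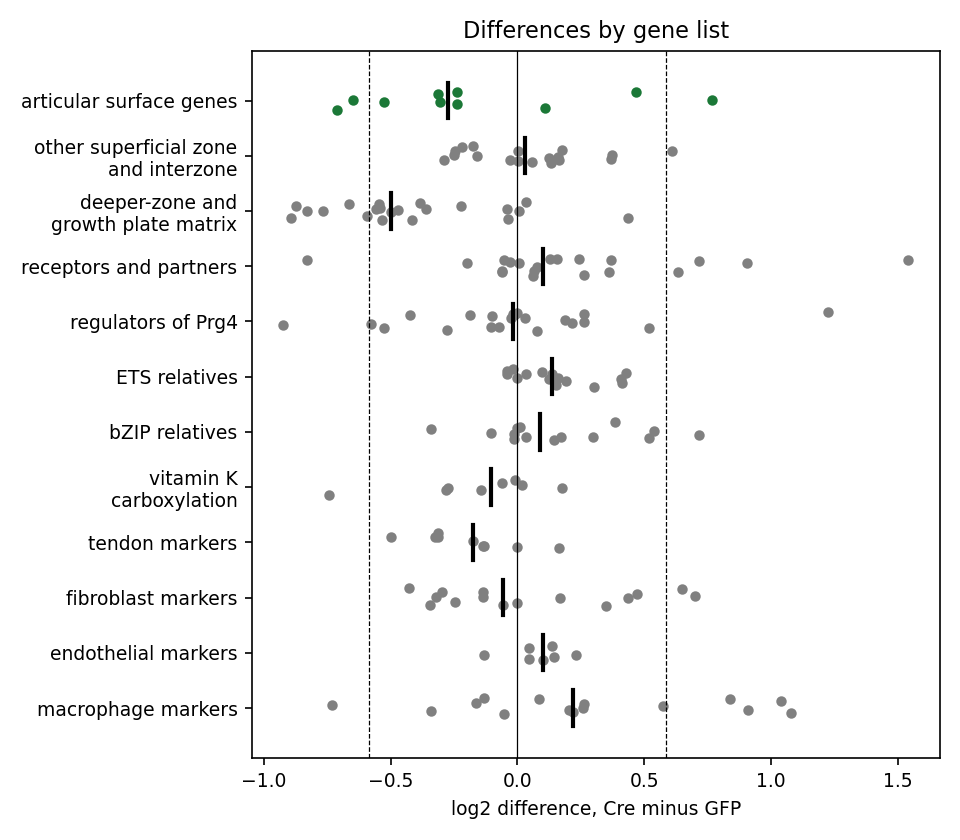
Difference of each measured gene between the libraries (log2, Cre minus GFP, x axis) by gene list, with the list median as a black bar and dashed lines at 1.5-fold. Vertical scatter within a row separates the points. The articular surface genes, in green, spread from -0.71 to 0.77 around a median of -0.27, between the deeper-zone matrix list at -0.50 and the other superficial zone list at 0.03. The deeper-zone matrix list holds the defining chondrocyte markers except Sox9, so it is not specific to a zone.

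Several of these genes are also expressed by cells other than chondrocytes, so markers of those cells were read beside them, and their part in the results was not tested. Prg4 is made by synovial lining fibroblasts too, and Tnc and Abi3bp by other fibroblasts. Of 15 fibroblast markers 6 lay above 0, and their median was -0.06. Past 1.5-fold were 2 of them, Pdpn at 0.70 and Lum at 0.65. Their summed log2 level was 19.09 in the Cre library and 19.05 in the GFP library. Tendon markers had 1 of 9 above 0 and a median of -0.18, and a summed level of 17.26 in the Cre library and 17.47 in the GFP library.

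Erg is also an endothelial factor. Endothelial markers had 6 of 7 above 0, a median of 0.10 and a summed level of 11.15 in the Cre library and 11.03 in the GFP library. Among them Pecam1 differed by 0.23 and Kdr by -0.13. Tie1 and Esam had the same values, 5.83 in the Cre library and 5.78 in the GFP library, close to the minimum level. Eng, at 10.51 in the Cre library and 10.36 in the GFP library, weighs most in the endothelial sum. At a minimum 10 times higher, Eng was the 1 endothelial marker left. Macrophage and leukocyte markers had 10 of 15 above 0, with a median of 0.22. The 4 that were 1.5-fold higher were Emr1, Cd14, Lyz1 and Lyz2, from 0.84 to 1.08, and the 1 that was lower was the mannose receptor gene Mrc1, at -0.73. Their summed level was 15.69 in the Cre library and 15.08 in the GFP library, in the direction of Clu and Prg4. The most abundant member, Lyz2, was at 14.82 in the Cre library and 13.98 in the GFP library and weighs most in that sum. The colony-stimulating factor receptor gene Csf1r differed by 0.08 and Cd68 by -0.05, and the complement genes C1qb, C1qa and C1qc by -0.13, -0.16 and -0.34. Smooth muscle and pericyte markers had 3 of 5 above 0 and a median of 0.15, with a summed level of 12.55 in the Cre library and 13.09 in the GFP library, where Acta2 and Tagln differed by -0.68 and -0.58. Osteoblast markers had 1 of 9 above 0 and a median of -0.19. The exception was Spp1, at 1.36, which brought their summed level to 17.88 in the Cre library and 17.48 in the GFP library. Of the listed markers, Cldn5, Tek, Myh11, Cnn1, Pi16 and Bglap2 were not found among the deposited genes by symbol or RefSeq synonym. Flt1 and Emcn lay under the minimum level. Several genes belong to more than 1 list, among them Cd44, Thbs4, Fmod, Acan, Col1a1 and Crem.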

How the data were processed

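RNA was sequenced from 2 libraries, 1 per group. Per the submitters' processing notes, the tools were bcl2fastq 1.8.4, TopHat2 2.0.6 and HTSeq, on mm10. Neither the annotation nor the strand setting nor the handling of multiply aligned reads was stated in the labels. The deposited table gives log2 normalized counts per library, their mean and their difference, which equals GFP minus Cre in every row. All differences here are Cre minus GFP. The transform is not described. A regularized log is inferred from the heading rLogFC and from the narrow spread at low levels (SD of the difference 0.15 at mean levels from 5.64 to 7, against 0.23 from 9 to 11), and it would understate differences of less abundant genes. The values hold no read counts, so no counting interval can be given.

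The genes compared had a mean of 50 or more on the linear scale (5.64 on the log2 scale). The deposited genes themselves had no mean log2 level under 5.00, so shares of all genes refer to genes above such a floor. No test across libraries was possible with 1 library per group, and genes were counted by size alone, at 1.5-fold and 2-fold. For single genes, the percentile of the difference among the 500 genes nearest in mean level was given as a description. The genes described, the lists and the settings were chosen with earlier results of these data known. Named were all 10 genes, up to 4 genes per list by absolute difference, genes past 1.5-fold and those tied to a member by role. Older symbols were matched through RefSeq synonyms (Snorc is listed as 3110079O15Rik). Coordinates and exon lengths come from GENCODE M21 on GRCm38 (mm10), which matched 11906 of 13138 genes by symbol and chromosome. Sequences come from RefSeq (GRCm38.p6). The calculations used Python 3.11.15 with pandas 2.3.3 and numpy 2.4.6, and the counting and scaling steps were tested on simulated data. Those data had the same spread at every level and planted differences larger than any of the 10 genes showed. That test checked the code and cannot show how reliable a 1.5-fold difference is here. Other scalings, minimums, folds and summaries were tried.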

Additional observations from a re-analysis of the deposited data

How the results depend on the processing

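The differences of the 10 genes kept their direction and moved by less than 0.1 under 3 other scalings, whose offsets were -0.00041 for median centring, -0.0077 for equal totals and -0.015 for equal totals without Rn45s and Lars2. Offsets this small could not have moved a difference by 0.1 or turned even the smallest, 0.11 for Tnc. The counts depended on the fold. Against 1 gene of the 10 higher and 2 lower at 1.5-fold, 0 were higher and 0 lower at 2-fold, and 2 were higher at the smaller difference of 0.32 (log2). Over all genes, 288 were higher and 122 lower at 1.5-fold, 94 and 9 at 2-fold, and 771 and 558 at a difference of 0.32. The median of the 10 genes was -0.16 by the mean in place of the median, and -0.31 without Clu, a setting chosen after the data were seen.

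By the mean, the receptor list moved to 0.22, the fibroblast list to 0.054, the osteoblast list to -0.046 and the smooth muscle list to -0.096, against 0.15 by its median. At a minimum 10 times higher, the smooth muscle list turned to -0.63 with 2 genes left, the tendon list moved to -0.31 and the other superficial zone list to 0.14. Of 98 alternative list medians, 90 moved by less than 0.1 without turning. Many of these come from the scalings, which subtract a constant far smaller than 0.1 and so could not have moved a median that far. The larger moves all came from the mean or the higher minimum. Prg4 moved from percentile 95.2 to 95 with the 100 nearest genes. The cause of these moves was not tested. No paired analysis was possible because there was 1 library in each group, and pseudocounts and leaving out replicates could not be applied to log2 values of 1 library per group. Depth is unknown, so it cannot be said which small differences it limits.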

Other observations

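The neighbours of the 10 genes were looked at after the values of the 10 had been seen. For each gene the nearest measured gene on either side was taken from the genes placed by GENCODE, 20 neighbours in all, and their differences (log2, Cre minus GFP) had a median of -0.04. Past 1.5-fold were 4 of the 20, 3 higher and 1 lower, where 2.25% of all genes were higher and 0.952% lower. Stk32b, a kinase gene 18.3 kb from Cytl1, was at 7.92 in the Cre library and 8.51 in the GFP library, lower like Cytl1. Stx18, on the other side of Cytl1 at 299 kb, differed by 0.03. Ptgs2, which encodes the inducible cyclooxygenase, lies 341 kb from Prg4 and was at 11.52 in the Cre library and 10.30 in the GFP library. Hmcn1, 96.4 kb from Prg4 on the other side, differed by -0.24.

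Erg lies between a pair of genes with the opposite direction. Kcnj15, a potassium channel gene 58.9 kb away, was at 9.07 in the Cre library and 7.81 in the GFP library, and Ets2, 115 kb away, was at 11.84 in the Cre library and 11.43 in the GFP library. The cytokine gene Tnfsf15, 215 kb from Tnc, differed by 1.36, while Tnc itself differed by 0.11. Tfg lies 0.197 kb from Abi3bp and differed by -0.09, against -0.65 for Abi3bp. The neighbours of Clu, Scara3 and Ephx2, each differed by -0.04, against 0.77 for Clu.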
